A study of Mus musculus with 48 samples.

Results

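Tfeb, Tfe3 and Mitf, the transcription factors of the MiT/TFE family, were examined together with Flcn, Fnip1, Fnip2, Rragc and Rragd, the folliculin axis that controls them, and with their target Gpnmb. The 9 genes were chosen by symbol, as 9 of the 18178 genes with a symbol among 27281 in the table, and all 9 passed the filter on low values. Expression had been measured by RNA-Seq in mouse striatal progenitor cells of the STHdh lines, a cell culture model of Huntington's disease. STHdhQ111 cells, labelled as mutant, carry an expanded glutamine repeat in huntingtin, and STHdhQ7 cells, labelled as wild type, carry the short one. Each line is a single conditionally immortalized line from a C57BL/6 background, so a difference between the lines is also a difference between 2 cell lines. Serum was withheld from all cells for 24 hours, controls included, while a compound or vehicle alone was present.

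The 48 samples form 16 conditions of 3 samples. STHdhQ7 cells received vehicle, and STHdhQ111 cells received vehicle or 1 of 14 compounds. DKI (diacylglycerol kinase inhibitor II), meclizine, loxapine, cyproheptadine and selisistat were given at 10 µM and pizotifen at 5 µM. Cysteamine was given at 250 µM, sodium butyrate at 1 mM and 4-deoxypyridoxine (DOP) at 4 mM. The nanomolar compounds were fingolimod phosphate at 250 nM, trichostatin A at 10 nM, nortriptyline at 1 nM, and nicotinamide and haloperidol at 0.5 nM each. The study placed cyproheptadine, loxapine and pizotifen in Group A and DKI and meclizine in Group B by their metabolite profiles, which are not part of the RNA data. The 3 samples of a condition were collected on different days, except that replicates 1 and 3 of cyproheptadine and of DKI both came from day 3. The labels do not say that the 3 samples were separate cultures, so the p-values measure the spread between these samples, which may be technical.

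The family factors are basic helix-loop-helix proteins that bind E-box sequences in the promoters of lysosomal and autophagy genes. When amino acids are plentiful, the kinase mTORC1 phosphorylates TFEB and TFE3 at the lysosome and keeps them in the cytoplasm. The phosphorylation depends on RagC or RagD, GTPases that bind TFEB and bring it to mTORC1. Folliculin, with its partners FNIP1 and FNIP2, activates RagC and RagD, and loss of folliculin lets TFEB and TFE3 enter the nucleus. Rragd, Flcn and Gpnmb are known targets of the family themselves, so the axis contains a feedback. RNA levels do not show phosphorylation or location of these proteins, neither of which was measured here.

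Promoter windows of RefSeq (GRCm38.p6), from 250 bases before to 50 bases after each annotated start, were searched for the sequences this family binds. The search read both strands, and CACGTG and CATGTG are special cases of CANNTG, the general E-box. All 9 genes had windows, 14 in total, because Tfeb and Mitf have 3 annotated starts each and Tfe3 has 2. CACGTG, the core that the family prefers, was found in 2 of the 14 windows, those of Rragc and Fnip1, and in 7.15% of 32851 windows of all genes. CATGTG, a variant that MITF also binds, was in 0 of 14 and in 14.2% of all, and CANNTG was in 8 of 14 and in 72.3% of all. A match describes these letters only, and a window without one says nothing of the factor.

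The 250 bases before the start of 4 genes are shown 5′ to 3′, with CANNTG in capitals. Against vehicle, Rragd was called higher with 6 compounds and Gpnmb with 5, and both lower with 0. Rragc was called higher with 5 and lower with 2, and Fnip1 higher with 2 and lower with 1. Rragc and Fnip1 are shown because their windows hold CACGTG, from 112 to 107 bases before the start in Rragc and from 75 to 70 bases before it in Fnip1. Rragd and Gpnmb are shown because their differences were among the widest of the 9 and their windows hold other E-box letters. The regions are chr4:123917183-123917432 for Rragc, chr11:54437929-54438178 for Fnip1, chr4:32982748-32982997 for Rragd and chr6:49036268-49036517 for Gpnmb, all on the plus strand.
Rragc: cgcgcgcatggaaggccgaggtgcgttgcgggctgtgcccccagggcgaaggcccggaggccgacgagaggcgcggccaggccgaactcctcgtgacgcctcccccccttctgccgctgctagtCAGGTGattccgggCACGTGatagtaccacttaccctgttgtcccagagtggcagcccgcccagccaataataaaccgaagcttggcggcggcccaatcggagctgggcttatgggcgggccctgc
Fnip1: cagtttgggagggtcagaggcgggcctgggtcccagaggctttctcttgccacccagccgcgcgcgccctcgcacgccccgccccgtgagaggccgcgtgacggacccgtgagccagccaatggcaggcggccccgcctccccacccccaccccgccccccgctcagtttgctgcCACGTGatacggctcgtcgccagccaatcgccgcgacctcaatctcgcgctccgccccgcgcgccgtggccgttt
Rragd: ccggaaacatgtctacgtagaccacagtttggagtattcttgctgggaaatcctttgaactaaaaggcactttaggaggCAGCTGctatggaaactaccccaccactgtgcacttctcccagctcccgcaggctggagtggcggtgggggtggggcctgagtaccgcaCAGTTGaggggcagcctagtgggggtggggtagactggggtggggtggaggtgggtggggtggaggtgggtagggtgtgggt
Gpnmb: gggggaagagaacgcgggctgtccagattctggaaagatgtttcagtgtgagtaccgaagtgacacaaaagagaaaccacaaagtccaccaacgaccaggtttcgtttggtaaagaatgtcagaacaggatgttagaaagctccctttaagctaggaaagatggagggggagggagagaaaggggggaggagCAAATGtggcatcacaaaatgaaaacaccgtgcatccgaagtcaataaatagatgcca

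In the GENCODE annotation of GRCm38, Tfeb (ENSMUSG00000023990) lies on the plus strand of chromosome 17 from 47737030 to 47792419, Tfe3 (ENSMUSG00000000134) on the plus strand of chromosome X from 7762560 to 7775202, and Mitf (ENSMUSG00000035158) on the plus strand of chromosome 6 from 97807052 to 98021349. Flcn (ENSMUSG00000032633) lies on the minus strand of chromosome 11 from 59791408 to 59810016. Fnip1 (ENSMUSG00000035992) is on the plus strand of chromosome 11 from 54438199 to 54518235, and Fnip2 (ENSMUSG00000061175) on the minus strand of chromosome 3 from 79455974 to 79567796. Rragc (ENSMUSG00000028646) and Rragd (ENSMUSG00000028278) are both on the plus strand of chromosome 4, from 123917446 to 123936997 and from 32983037 to 33022180. Gpnmb (ENSMUSG00000029816) is on the plus strand of chromosome 6 from 49036546 to 49070929. Protein-coding genes on the opposite strand overlap Rragc (4930535I16Rik) and Fnip2 (Gm17359). Whether the authors' quantification used strand is not given in the sources used here, so reads of these 2 overlaps may be shared.

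Values are the authors' normalized abundances on a log2 scale, and a level of one gene cannot be set against that of another because they are not per length. Read counts and the depth of each sample are unknown, and the precision given here rests on the number of samples and the spread between them. Replicates of a condition correlated at 0.996 to 0.999 across genes. The marker genes of the cells were checked as a fact of the whole series. Of 6 markers of neural progenitors, 3 reached a log2 abundance of 6 in some sample, and Nes and Sox2 were at 4.96 and 4.81 in STHdhQ111 vehicle samples against 10.95 and 8.91 in STHdhQ7. Of 7 striatal neuron markers found, 1 (Foxp1) reached 6, and 3 stayed under 1. Of the markers of melanocytes, cells in which MITF and GPNMB are abundant, the 4 found were at 4.61 or lower, with Tyrp1 at -2.28 or lower. Of 7 markers of macrophages and osteoclasts, 4 were under 1 (Aif1, Acp5, Ctsk and 1 of 2 identifiers of Itgam), and Csf1r did not pass 2.23, but Ptprc was at 10.59 in STHdhQ111 vehicle samples and Cd68 reached 6.91. Of 5 mesenchymal markers, 4 reached 6, with Col1a1 from 13.63 to 15.14, and Thy1 stayed under 1. Tfec, the remaining gene of the family, was at the lowest value of the table in every sample. In bulk RNA, fewer cells of a type and less RNA per cell cannot be told apart.

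The first question was how the axis responded to each protective compound in STHdhQ111 cells. Of the 126 pairs of a gene and a compound, 39 (31%) passed an adjusted p of 0.05 against the vehicle control in limma, 29 higher and 10 lower. Over all 13409 genes tested, 17% of such pairs were called. The 5 compounds of Groups A and B held 28 of the calls among their 45 pairs, or 62.2%, against 28.9% over all genes in the same comparisons. Of these 28, 25 were higher, and the 3 lower ones were all Tfeb. All 39 called pairs had 3 treated samples that did not overlap the 3 vehicle samples and lay on the same side of the vehicle within the collection day. Without overlap were 63 of the 126 pairs, and 33.2% of pairs over all genes. The 14 comparisons share the 3 vehicle samples, so they are not independent of each other.

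**Figure D1:**
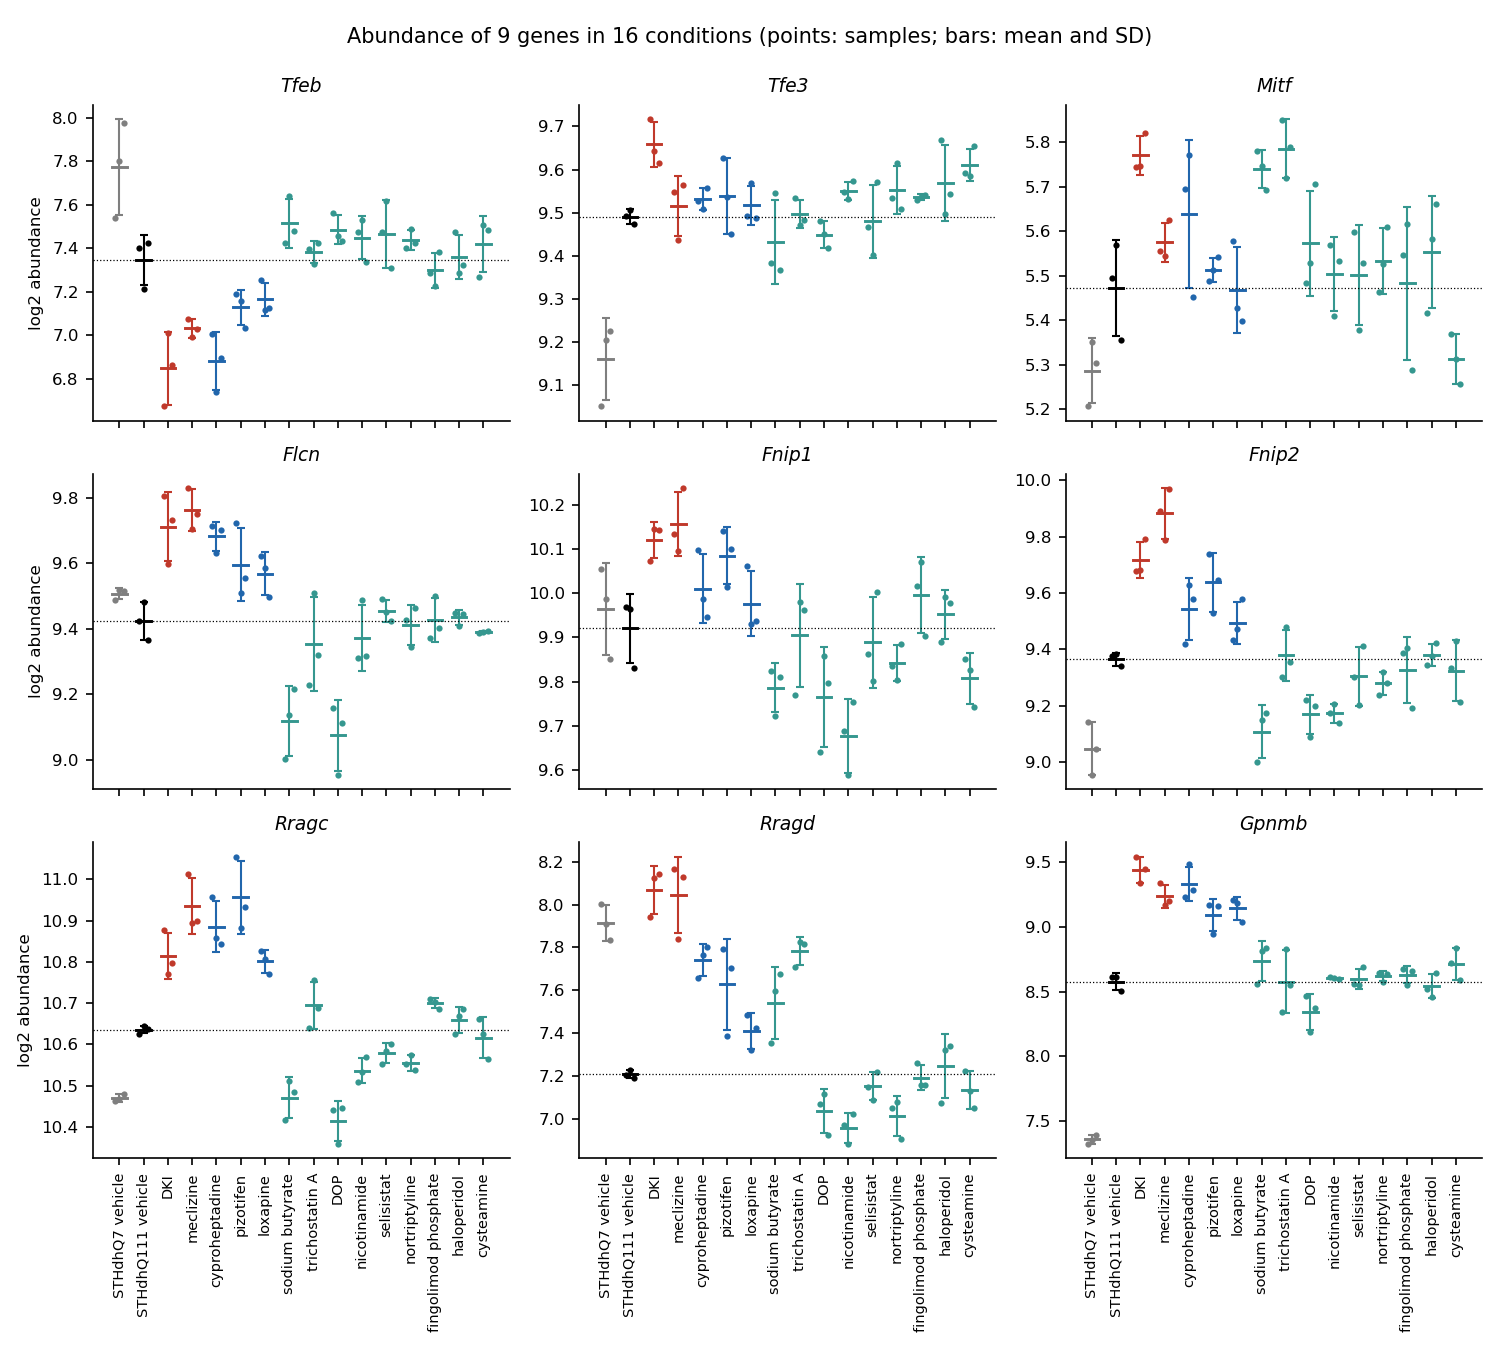
Log2 abundance of each gene (vertical axis, its own range per panel) in the 16 conditions (horizontal axis). Points are samples, lines and whiskers the mean and SD of 3 samples, the dotted line the STHdhQ111 vehicle mean. Red marks Group B, blue Group A, black and grey the vehicle controls of STHdhQ111 and STHdhQ7. Gpnmb, Rragd, Fnip2, Flcn and Rragc stand above the dotted line in the red and blue conditions, and Tfeb stands below it.

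With DKI, all 9 genes were called, 8 higher and 1 lower, in a comparison in which 42.3% of all genes were called (20.4% higher, 21.9% lower). With meclizine, an antihistamine, 7 were called, 6 higher and 1 lower, against 26.8% of all genes (13.1% higher, 13.6% lower). With cyproheptadine, an antagonist of histamine and serotonin receptors, 6 were called, 5 higher and 1 lower, against 35.6% (17.5% higher, 18.2% lower). Pizotifen, a related tricyclic antagonist, had 4 called, all higher, against 17.9% (8.86% higher), and the antipsychotic loxapine had 2, both higher, against 21.9% (10.1% higher). The median log2 difference of the 9 genes was 0.29 for DKI, 0.30 for meclizine, 0.18 for cyproheptadine, 0.17 for pizotifen and 0.13 for loxapine, while the median over all genes was between -0.01 and 0.00 in each.

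Rragd encodes RagD, the GTPase that presents TFEB to mTORC1, and its differences were among the widest of the 9 genes. In the vehicle control Rragd was at 7.21, 7.23 and 7.19. In DKI it was at 7.94, 8.13 and 8.14, and in meclizine at 8.17, 7.84 and 8.13. In cyproheptadine the samples were at 7.66, 7.77 and 7.80. Every sample of these 3 compounds lay above every vehicle sample. The fitted difference was 0.87 with DKI (SE 0.092, adjusted p = 8e-10), a 1.83-fold level, 0.84 with meclizine (SE 0.091, adjusted p = 5.9e-09) and 0.54 with cyproheptadine (SE 0.092, adjusted p = 1.4e-05). Pizotifen samples were spread more widely, at 7.79, 7.39 and 7.70, with a difference of 0.42 (adjusted p = 0.001). Loxapine samples were at 7.48, 7.32 and 7.42, also above each vehicle sample, but the difference of 0.20 (95% interval 0.02 to 0.39) had an adjusted p of 0.11.

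Rragc, which encodes the close relative RagC, differed by less but with little spread. The vehicle samples were at 10.63, 10.64 and 10.64. Pizotifen samples were at 11.05, 10.88 and 10.93, meclizine samples at 11.01, 10.89 and 10.90, and cyproheptadine samples at 10.96, 10.86 and 10.84. The differences were 0.32, 0.30 and 0.25 (SE 0.043 to 0.044), with adjusted p of 2.2e-06, 1.9e-06 and 2.1e-05. With DKI and loxapine Rragc rose by 0.18 (adjusted p = 0.00091) and 0.17 (adjusted p = 0.0052). With only the DKI and vehicle samples in the fit, the DKI call was lost at an adjusted p of 0.1.

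Gpnmb encodes a transmembrane glycoprotein of lysosomes and melanosomes that is a target of the family, and it was called higher with all 5 compounds of Groups A and B. Vehicle samples were at 8.62, 8.61 and 8.50. DKI samples were at 9.54, 9.34 and 9.45, cyproheptadine samples at 9.23, 9.48 and 9.29, and meclizine samples at 9.34, 9.17 and 9.20. Loxapine samples were at 9.21, 9.19 and 9.04, and pizotifen samples at 9.17, 8.95 and 9.16. All 15 of these samples lay above all 3 vehicle samples. The differences were 0.86 with DKI (SE 0.091, adjusted p = 7.1e-10), 0.76 with cyproheptadine (adjusted p = 3.9e-08), 0.66 with meclizine (adjusted p = 6e-07), 0.57 with loxapine (adjusted p = 2e-05) and 0.52 with pizotifen (adjusted p = 8.8e-05). On the linear scale they are levels of 1.82-fold with DKI and 1.43-fold with pizotifen. Over the other 9 compounds the difference ran from -0.23 in DOP to 0.16 in sodium butyrate, and none was called. Without sodium butyrate replicate 1, the sodium butyrate difference was 0.25 with an adjusted p of 0.044. Gpnmb was called lower with DOP without DOP replicate 1 (-0.30, adjusted p = 0.035), without vehicle replicate 3 (-0.28, adjusted p = 0.049) and with no term for the collection day (adjusted p = 0.049).

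Flcn, which encodes folliculin itself, and Fnip2, which encodes its partner, rose with Group B and, less uniformly, with Group A. Flcn was at 9.42, 9.48 and 9.37 in vehicle samples, at 9.83, 9.71 and 9.75 in meclizine, at 9.81, 9.60 and 9.73 in DKI and at 9.71, 9.63 and 9.70 in cyproheptadine. The differences were 0.34 (SE 0.066, adjusted p = 0.00015), 0.29 (adjusted p = 0.00051) and 0.26 (adjusted p = 0.0022). Pizotifen and loxapine had Flcn differences of 0.17 (adjusted p = 0.064) and 0.15 (adjusted p = 0.11), neither of which passed. Without pizotifen replicate 2, the pizotifen difference was 0.22 with an adjusted p of 0.044, and with only the compared samples in the fit the pizotifen p was 0.045.

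Fnip2 was at 9.38, 9.38 and 9.34 in vehicle samples and reached 9.89, 9.79 and 9.97 in meclizine, which was its highest condition. DKI samples were at 9.68, 9.68 and 9.79. The differences were 0.52 with meclizine (SE 0.069, adjusted p = 3.7e-07) and 0.35 with DKI (adjusted p = 7.7e-05). Fnip2 rose by 0.27 with pizotifen (adjusted p = 0.0044, 0.051 without pizotifen replicate 1) and by 0.18 with cyproheptadine (adjusted p = 0.044). The cyproheptadine call was lost without any single vehicle sample and without cyproheptadine replicate 2 or 3, at adjusted p from 0.07 to 0.22, and also with no minimum mean (0.062), with collection time as a further term (0.054) and with only the compared samples (0.067). Loxapine samples had a Fnip2 difference of 0.13 (adjusted p = 0.19).

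Fnip1, the second partner of folliculin, was called only with the Group B compounds among these 5, and narrowly. It was at 9.97, 9.96 and 9.83 in vehicle samples, 10.14, 10.10 and 10.24 in meclizine and 10.07, 10.15 and 10.14 in DKI. The groups did not overlap, and the differences were 0.24 (adjusted p = 0.0062) and 0.20 (adjusted p = 0.014). Both rest in part on vehicle replicate 3, the lowest sample: without it the adjusted p was 0.057 for meclizine and 0.12 for DKI. Leaving out meclizine replicate 3 or DKI replicate 2 also ended the calls, at 0.053 in each case. Pizotifen, cyproheptadine and loxapine had Fnip1 differences of 0.16, 0.09 and 0.06, none of which passed, although the first had an adjusted p of 0.04 with only the compared samples in the fit.

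The family factors moved in different directions. Tfeb, the factor for which the lysosomal gene programme was first described, was lower, at 6.67, 7.01 and 6.86 in DKI and 7.01, 6.74 and 6.89 in cyproheptadine against 7.40, 7.21 and 7.42 in the vehicle control. In meclizine it was at 7.07, 6.99 and 7.03. Tfeb fell by 0.50 with DKI (SE 0.0945, adjusted p = 4.5e-05), by 0.46 with cyproheptadine (adjusted p = 0.00017) and by 0.31 with meclizine (adjusted p = 0.01), the last of which was 0.056 and 0.057 without vehicle replicates 1 and 3. On the linear scale the level with DKI fell by 29.1%. Pizotifen and loxapine samples had Tfeb differences of -0.22 (adjusted p = 0.11) and -0.18 (adjusted p = 0.17).

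Tfe3, the family member that shares most of the targets of TFEB, was called with DKI alone. The DKI samples were at 9.72, 9.64 and 9.62 against 9.49, 9.51 and 9.47 in the vehicle control, a difference of 0.17 (SE 0.054, adjusted p = 0.01). The call was lost without DKI replicate 1 (adjusted p = 0.067) and with only the compared samples in the fit (0.099). The other 4 compounds had Tfe3 differences between 0.03 and 0.05. Mitf, the master factor of melanocytes, had samples between 5.21 and 5.85 throughout. Its DKI samples, at 5.75, 5.75 and 5.82, lay above the vehicle samples, at 5.50, 5.57 and 5.36, by 0.30 (SE 0.084, adjusted p = 0.0035), whereas meclizine, cyproheptadine, pizotifen and loxapine differed by 0.10, 0.17, 0.04 and -0.01 without passing. Without cyproheptadine replicate 3, the cyproheptadine difference of Mitf was 0.26 with an adjusted p of 0.021.

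**Figure D2:**
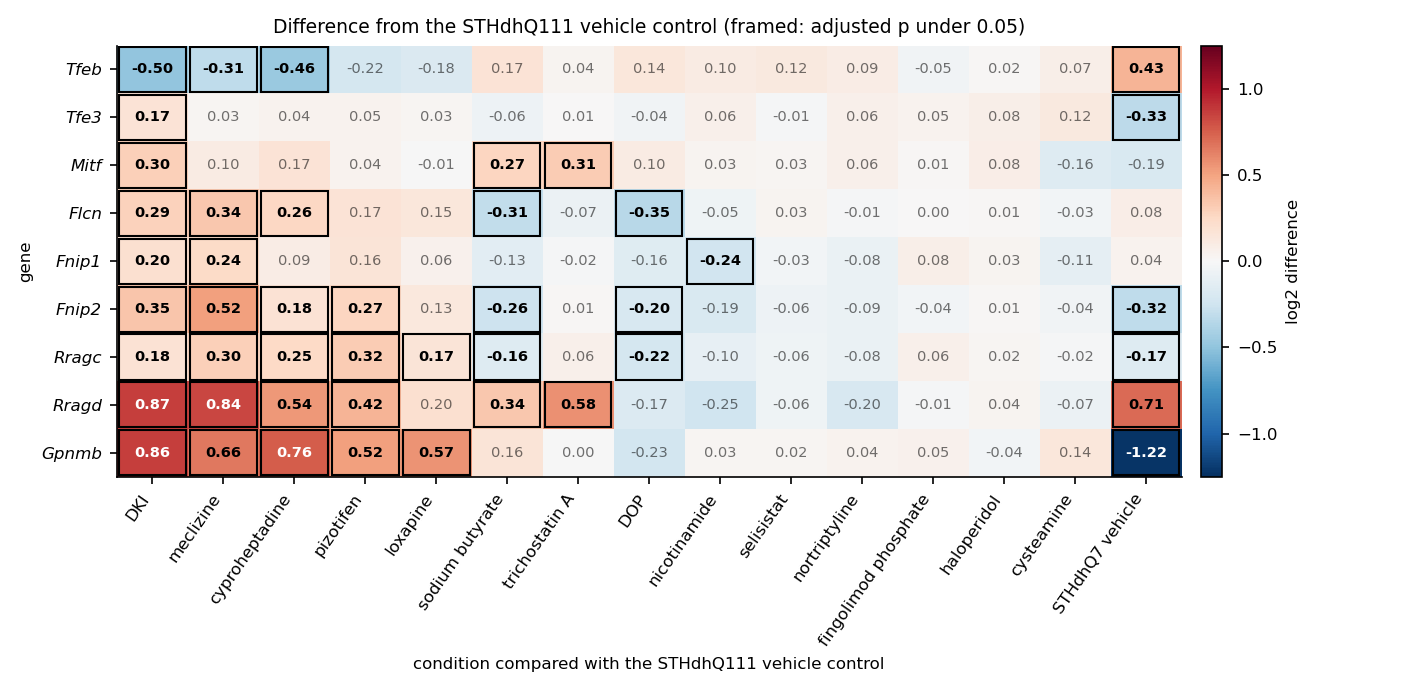
Fitted log2 difference of each gene (rows) in each condition minus the STHdhQ111 vehicle control (columns), as colour and number. Framed cells have an adjusted p under 0.05. The 5 columns at the left hold 28 framed cells, in which only Tfeb is negative, and the DOP column holds 3, all negative.

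Outside Groups A and B, calls were found for 4 compounds, and in part they had the opposite sign. Sodium butyrate and trichostatin A, both inhibitors of histone deacetylases, were tested at 1 mM and 10 nM, so their values stand side by side without a comparison. With sodium butyrate 5 of the 9 genes were called, 2 higher and 3 lower, against 37.5% of all genes (19.6% higher, 17.8% lower). With trichostatin A 2 were called, both higher, against 13.1% (6.41% higher). DOP, an analogue of vitamin B6, had 3 called, all lower, against 20.1% (11.2% lower).

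Rragd and Mitf were the genes called higher with both deacetylase inhibitors. Trichostatin A samples of Rragd were at 7.71, 7.83 and 7.81 and sodium butyrate samples at 7.35, 7.60 and 7.67, all above the vehicle samples. The differences were 0.58 (SE 0.091, adjusted p = 2.9e-05) and 0.34 (adjusted p = 0.0035). Mitf was at 5.85, 5.72 and 5.79 in trichostatin A and 5.78, 5.75 and 5.69 in sodium butyrate, with differences of 0.31 (SE 0.083, adjusted p = 0.0095) and 0.27 (adjusted p = 0.011). Both Mitf calls were lost without vehicle replicate 3, the lowest vehicle sample (adjusted p = 0.065 and 0.075), and the first also without trichostatin A replicate 1 (0.071).

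Flcn and Fnip2 were lower with sodium butyrate and DOP, the opposite of their direction with Group B. Flcn was at 9.0, 9.14 and 9.22 in sodium butyrate and at 9.16, 8.95 and 9.11 in DOP. It fell by 0.31 (SE 0.066, adjusted p = 0.00034) and by 0.35 (adjusted p = 0.00024). Fnip2 fell by 0.26 with sodium butyrate (SE 0.069, adjusted p = 0.003) and by 0.20 with DOP (adjusted p = 0.039). The DOP call of Fnip2 was lost in 5 of the 6 fits that left out a DOP or vehicle sample, at adjusted p from 0.05 to 0.2, and held without DOP replicate 1. It was also lost with no minimum mean (0.056), with collection time as a further term (0.05) and with only the compared samples (0.063). Fnip1 differed by -0.13 with sodium butyrate (adjusted p = 0.11) and by -0.16 with DOP (adjusted p = 0.091), which passed only without vehicle replicate 3, at -0.18 (0.043) and -0.21 (0.04). Rragc fell by 0.16 (adjusted p = 0.0027) and 0.22 (adjusted p = 0.00039), from the vehicle level of 10.64 to 10.42, 10.51 and 10.48 with sodium butyrate and to 10.44, 10.36 and 10.45 with DOP. With only the compared samples in the fit, the sodium butyrate call of Rragc had an adjusted p of 0.071.

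Nicotinamide at 0.5 nM had 1 call, Fnip1, at 9.69, 9.59 and 9.75, lower by 0.24 (SE 0.066, adjusted p = 0.014), where 10.4% of all genes were called (7.59% lower). It was lost without vehicle replicate 1 or 2 (adjusted p = 0.11 and 0.082) and without nicotinamide replicate 2 (0.13). With only the nicotinamide and vehicle samples in the fit, the count was 3, as Rragd and Fnip2 were also called lower (adjusted p = 0.042 and 0.028). Selisistat, nortriptyline, fingolimod phosphate, haloperidol and cysteamine had 0 calls among the 9 genes in limma. At an unadjusted p under 0.05, nortriptyline and cysteamine had 1 each, Rragd at -0.20 and Tfe3 at 0.12, and the other 3 had 0. The shares of all genes called were 0.515% for selisistat, 3.83% for nortriptyline, 0.0597% for fingolimod phosphate, 0% for haloperidol and 7.83% for cysteamine. For Gpnmb, the 95% intervals of the 5 differences lay between -0.22 and 0.32, and for Rragd between -0.38 and 0.22.

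The order of the 16 conditions differed between genes. Gpnmb ranged over 2.09 on the log2 scale between condition means and Rragd over 1.11, while Fnip1 ranged over 0.48, Tfe3 and Mitf over 0.50 each, Rragc over 0.54, Flcn over 0.69, Fnip2 over 0.84 and Tfeb over 0.92. The median SD within a condition was 0.04 for Rragc and between 0.05 and 0.10 for the others. Neighbours in the order overlapped in 13 of 15 steps for Fnip2, Rragc and Gpnmb, in 14 for Tfe3, Mitf, Flcn and Rragd, and in all 15 for Tfeb and Fnip1. A step is called clear below where its neighbours did not overlap, although conditions further along the order could still overlap across it. For Gpnmb the clear steps were from pizotifen (9.09 ± 0.13, SD, n = 3), the lowest of Groups A and B, to sodium butyrate (8.74 ± 0.16), and from DOP (8.34 ± 0.14) to STHdhQ7 vehicle (7.36 ± 0.04). For Rragd the clear step was from STHdhQ7 vehicle (7.92 ± 0.08) to trichostatin A (7.78 ± 0.06). For Rragc it was from loxapine (10.80 ± 0.03) to fingolimod phosphate (10.70 ± 0.01), which separates the 5 compounds from all other conditions, and from STHdhQ7 vehicle to DOP (10.42 ± 0.05). Sodium butyrate samples, from 10.417, overlapped the DOP samples, which reached 10.446. For Fnip2 the steps were from loxapine (9.49 ± 0.08) to haloperidol (9.38 ± 0.04) and from nortriptyline (9.28 ± 0.04) to nicotinamide (9.17 ± 0.03). Other conditions crossed both: trichostatin A reached 9.478, above the lowest loxapine sample at 9.433. Fingolimod phosphate went down to 9.192, below the highest nicotinamide sample at 9.205. For Flcn the step was from trichostatin A (9.35 ± 0.14) to sodium butyrate (9.12 ± 0.11), for Tfe3 from sodium butyrate (9.43 ± 0.10) to STHdhQ7 vehicle (9.16 ± 0.10), and for Mitf from loxapine (5.47 ± 0.10) to cysteamine (5.31 ± 0.06). The Mitf step was crossed by fingolimod phosphate, down to 5.289, and STHdhQ111 vehicle, down to 5.357, against cysteamine samples up to 5.369.

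Collection slots were not shared between the vehicle control and most compounds. Vehicle, STHdhQ7 and selisistat samples share each combination of collection day and time, and cyproheptadine and DKI share that of replicates 2 and 3. The remaining compounds were collected at other times of the same days. Meclizine, pizotifen and trichostatin A were therefore also compared with haloperidol, and sodium butyrate, loxapine, DOP and cysteamine with nicotinamide, the 0.5 nM compounds of the same slots. These are treated samples and not a vehicle. Over these 7 comparisons 23 of 63 pairs were called, 19 higher and 4 lower, against 14% over all genes.

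Against haloperidol, the same number of genes was called with meclizine (7, with 25.7% of all genes called) and with pizotifen (4, with 14.7%) as against vehicle. Rragd was higher by 0.80 with meclizine (SE 0.091, adjusted p = 1.6e-08) and by 0.38 with pizotifen (adjusted p = 0.0033), Gpnmb by 0.70 and 0.55, and Fnip2 by 0.50 and 0.26. The pizotifen call of Rragd was lost without haloperidol replicate 1 (adjusted p = 0.054) and with only the compared samples (0.055), and that of Fnip2 without pizotifen replicate 1 (0.079). The meclizine calls of Fnip1 and Tfeb were lost without haloperidol replicate 1 (0.097 and 0.063), and that of Fnip1 also without meclizine replicate 3 (0.11). Loxapine had 7 calls against nicotinamide, where 18.3% of all genes were called, compared with 2 against vehicle. Rragd was higher by 0.45 (SE 0.091, adjusted p = 0.00049), Fnip2 by 0.32 (adjusted p = 0.0009), Fnip1 by 0.30 (adjusted p = 0.0012) and Flcn by 0.20 (adjusted p = 0.031), and Tfeb was lower by 0.28 (adjusted p = 0.03). Nicotinamide samples were the lowest of all conditions for Rragd and Fnip1, with 6.97, 6.88 and 7.02 for Rragd, and their differences from vehicle were -0.25 for Rragd (adjusted p = 0.072), -0.24 for Fnip1 and -0.19 for Fnip2 (adjusted p = 0.063), all 3 of which were called with only the compared samples in the fit. The Flcn and Tfeb calls of loxapine were each lost in 4 of the 6 fits that left out a compared sample. In those fits the loxapine count was 5 to 6. Nortriptyline at 1 nM came from the same slots, with mean levels of 7.01 for Rragd, 9.84 for Fnip1 and 9.28 for Fnip2. The nicotinamide means were 6.96, 9.68 and 9.17, and the loxapine means 7.41, 9.98 and 9.49. Loxapine was not tested against nortriptyline.

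Sodium butyrate had 3 calls against nicotinamide, with 22.7% of all genes called: Rragd at 0.58 (adjusted p = 8.6e-06), Mitf at 0.24 (adjusted p = 0.037) and Flcn at -0.25 (adjusted p = 0.0043). The Mitf call was lost in 5 of the 6 fits that left out a compared sample (all but that without nicotinamide replicate 1), and the Flcn call without sodium butyrate replicate 1 (adjusted p = 0.06) or nicotinamide replicate 2 (0.061). Without sodium butyrate replicate 2, Tfe3 was also called, at -0.18 (adjusted p = 0.022). Trichostatin A had 1 against haloperidol, Rragd at 0.54 (adjusted p = 8.8e-05), with 11.1% of all genes called. Mitf was called as well without haloperidol replicate 3 (0.29, adjusted p = 0.044) and with no term for the collection day (0.23, adjusted p = 0.05), which made the count 2. DOP had 1 against nicotinamide, Flcn at -0.30 (adjusted p = 0.0057), with 5.56%, which was lost without DOP replicate 2 (0.086) or nicotinamide replicate 2 (0.076). With only the compared samples Gpnmb was also called lower with DOP (-0.26, adjusted p = 0.02). Fnip2 and Rragc, lower with DOP and with sodium butyrate against vehicle, were not called lower against nicotinamide. Cysteamine had 0 calls in limma, with 0.0671% of all genes called and 2 of the 9 at an unadjusted p under 0.05.

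**Figure D3:**
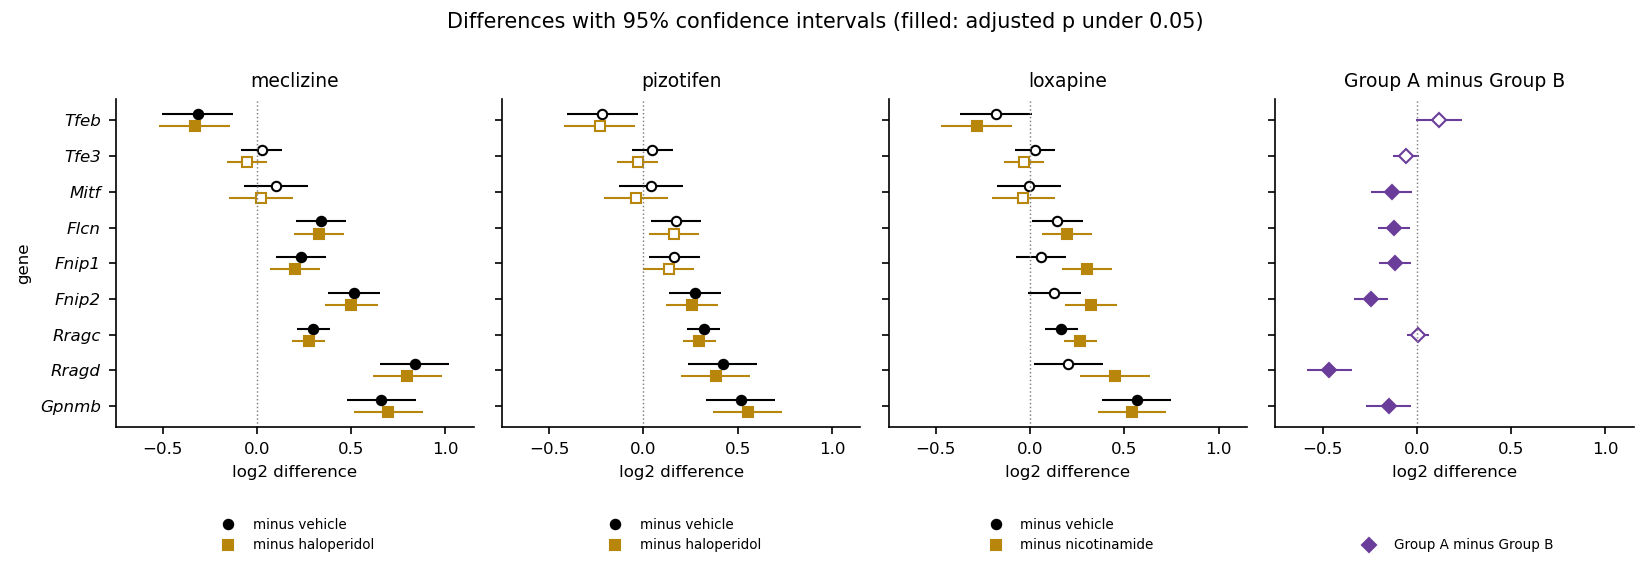
Log2 difference of each gene (horizontal axis) with its 95% confidence interval, for meclizine, pizotifen and loxapine minus vehicle (black circles) and minus the 0.5 nM compound of the same collection slots (yellow squares), and for Group A minus Group B (purple diamonds). Filled marks have an adjusted p under 0.05. Both marks lie close together for meclizine and pizotifen, and for loxapine the squares of Fnip1, Fnip2 and Rragd lie further right.

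The comparison of Group A with Group B asks whether the compounds that the metabolite profiles set apart also differ in this axis. Vehicle samples are on neither side of it, but they enter the fit and so its estimates of the spread and the collection day. Of the 9 genes 6 were called, all lower in Group A, against 41.3% of all genes called (21.4% lower). Rragd carried the widest difference: the 9 Group A samples lay between 7.32 and 7.80 and the 6 Group B samples between 7.84 and 8.17, without overlap. It was lower in Group A by 0.47 (SE 0.059, adjusted p = 3.3e-08). Fnip2 was lower by 0.24 (SE 0.044, adjusted p = 2.8e-05), with all 9 Group A samples below the Group B mean of their day, although the ranges overlapped. On day 1 that mean is meclizine replicate 1 alone, as DKI has no sample of that day, and meclizine was the highest condition for Fnip2. The SE, intervals and p-values of this comparison rest on the spread of samples within conditions. They leave out the spread between the compounds of a group, so they describe these compounds only.

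The other 4 calls were narrow. Gpnmb was lower by 0.15 (adjusted p = 0.036), Mitf by 0.13 (adjusted p = 0.045), Flcn by 0.12 (adjusted p = 0.019) and Fnip1 by 0.11 (adjusted p = 0.027). The count dropped to 3 without any 1 of 6 samples, which were meclizine replicate 1, cyproheptadine replicate 3, loxapine replicate 3, DKI replicates 1 and 3, and pizotifen replicate 2. The Mitf call was lost in most of the fits that left out a sample. Rragc differed by 0.01 (95% interval -0.05 to 0.06), Tfe3 by -0.06 (-0.13 to 0.01) and Tfeb by 0.12 (-0.0048 to 0.24), none of which passed. Without DKI replicate 2, Tfeb was called higher in Group A by 0.16 (adjusted p = 0.043). Group A includes pizotifen at 5 µM, whereas the other 4 compounds were given at 10 µM.

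Within Group A, cyproheptadine and loxapine were given at the same dose, and their comparison was chosen after the data were seen. Rragd was higher with cyproheptadine by 0.34 (SE 0.092, adjusted p = 0.013) and Tfeb lower by 0.28 (SE 0.0945, adjusted p = 0.048), with 10.5% of all genes called. The Rragd call was lost without cyproheptadine replicate 2 or 3 or loxapine replicate 2, at adjusted p from 0.051 to 0.076, and the Tfeb call without cyproheptadine replicate 2 or 3 or any loxapine replicate. For Gpnmb the difference was 0.19 (95% interval 0.01 to 0.37, adjusted p = 0.19), and 0.25 (adjusted p = 0.049) with only the compared samples in the fit. Cyproheptadine and pizotifen are tricyclic compounds that share a methylpiperidine ring and differ in the fused ring system, but were given at different doses, so no comparison was made. At 10 µM cyproheptadine, Rragd, Gpnmb and Rragc differed from vehicle by 0.54, 0.76 and 0.25, and at 5 µM pizotifen by 0.42, 0.52 and 0.32.

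The lines themselves differed in 6 of the 9 genes under vehicle, 2 higher and 4 lower in STHdhQ7, where 55.8% of all genes were called (29.2% higher, 26.6% lower). The share of members called was thus near the share of all genes. Gpnmb was the most different: 7.32, 7.35 and 7.39 in STHdhQ7 against 8.62, 8.61 and 8.50 in STHdhQ111. It was lower in STHdhQ7 by 1.22 (SE 0.09, adjusted p = 1.2e-14), a level of 0.429-fold. Rragd went the other way, at 8.0, 7.91 and 7.83 against 7.21, 7.23 and 7.19, higher by 0.71 (SE 0.091, adjusted p = 1.8e-08). Rragd and Gpnmb, both called higher with DKI, meclizine, cyproheptadine and pizotifen, stood on opposite sides between the lines.

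Tfeb was higher in STHdhQ7, at 7.54, 7.80 and 7.98, by 0.43 (SE 0.0935, adjusted p = 0.00017). Tfe3 was lower, at 9.05, 9.2 and 9.22, by 0.33 (SE 0.053, adjusted p = 1.4e-06), and this was the only condition in which all its samples lay below all others. Fnip2 was lower by 0.32 (adjusted p = 0.00014) and Rragc by 0.17 (adjusted p = 0.0013). Mitf had a difference of -0.19 (95% interval -0.35 to -0.02, adjusted p = 0.055, and 0.026 at a difference of -0.24 without STHdhQ111 vehicle replicate 3), Flcn of 0.08 (adjusted p = 0.29) and Fnip1 of 0.04 (adjusted p = 0.6). The mean level of Gpnmb was 7.36 in STHdhQ7 vehicle samples, 8.58 in STHdhQ111 vehicle samples and 9.09 to 9.44 with the compounds of Groups A and B, so these lay further from STHdhQ7 than the vehicle did. For Rragd the same levels were 7.92, 7.21 and 7.41 to 8.07. Nes, Sox2 and Ptprc also differed between the lines, at 10.95, 8.91 and 7.86 in STHdhQ7 and 4.96, 4.81 and 10.59 in STHdhQ111, and their part in these differences was not tested.

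Lists of genes around the axis were counted next, chosen from textbook knowledge with earlier results of these data known. Among 38 tested lysosomal and autophagy targets of the family, 28 were higher and 2 lower with DKI, 27 higher and 0 lower with cyproheptadine, and 26 higher and 1 lower with meclizine. Pizotifen had 21 higher and 0 lower, and loxapine 17 higher and 0 lower. Of all genes, 42.3%, 35.6%, 26.8%, 17.9% and 21.9% were called in either direction in these comparisons. The median log2 difference of the list was 0.26, 0.25, 0.31, 0.19 and 0.135 in that order, against medians between -0.01 and 0.00 over all genes. Among called genes of the list, Sqstm1, the autophagy receptor p62, rose the most with DKI (1.16, SE 0.093, adjusted p = 9.8e-13) and meclizine (0.91). Gla, the lysosomal alpha-galactosidase, rose the most with cyproheptadine (0.76) and pizotifen (0.51), and Ctsl, a lysosomal cysteine protease, with loxapine (0.49). Wipi1, which acts in autophagosome formation, fell by 0.32 with DKI and by 0.20 with meclizine. The DKI count was 17 with only the DKI and vehicle samples in the fit, and the loxapine count was 10 without vehicle replicate 1 and 11 without loxapine replicate 2. Against haloperidol, meclizine had 24 higher and 1 lower and pizotifen 17 higher and 0 lower, with 25.7% and 14.7% of all genes called. This pizotifen count was as low as 10 with single samples left out. Against nicotinamide, loxapine had 21 higher and 0 lower, with 18.3% of all genes called.

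Elsewhere the same list behaved differently. DOP had 14 lower and 1 higher with a median of -0.135, but the total was 3 without DOP replicate 2 and 8 with only the compared samples. Against nicotinamide, the 0.5 nM compound of its collection slots, DOP had 3 lower and 0 higher, with 5.56% of all genes called. That total was 0 to 3 with single samples left out. Sodium butyrate had 7 higher and 5 lower with a median of 0.01, with Ctsl up by 0.64 and Gusb, the lysosomal beta-glucuronidase, down by 0.31. Against nicotinamide, sodium butyrate had 9 higher and 5 lower, with 22.7% of all genes called. This total was 8 to 11 with single samples left out. Trichostatin A had 7 higher and 0 lower, between 2 and 10 when single samples were left out (2 without vehicle replicate 1, 4 without vehicle replicate 2 or trichostatin A replicate 1, 3 without trichostatin A replicate 2), and 2 with only the compared samples. Against haloperidol, trichostatin A had 3 higher and 0 lower, with 11.1% of all genes called. That count was 1 to 3 with single samples left out. Between the lines, 20 were higher and 9 lower in STHdhQ7, with Neu1, the lysosomal sialidase, higher by 0.85 and Ppargc1a, a coactivator of mitochondrial genes, lower by 1.03. In Group A against Group B, 7 were higher and 14 lower, with Sqstm1 lower in Group A by 0.75 (SE 0.059, adjusted p = 6.7e-13). The shares of all genes called against vehicle were 20.1% with DOP, 37.5% with sodium butyrate and 13.1% with trichostatin A. They were 55.8% between the lines and 41.3% in Group A against Group B.

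Upstream of the axis, the 8 genes of the remaining Rag GTPases, the Ragulator scaffold and the amino acid transporter Slc38a9 had 3 higher with DKI, 4 with meclizine and 4 with cyproheptadine, and none lower, where 42.3%, 26.8% and 35.6% of all genes were called in either direction. Sodium butyrate and pizotifen also had 4 higher and loxapine 3, with none lower, where 37.5%, 17.9% and 21.9% of all genes were called. The sodium butyrate count was 1 without vehicle replicate 2 or without its own replicate 1 or 2. The pizotifen count was 1 without vehicle replicate 1 or without its own replicate 1 or 3, and 2 without vehicle replicate 2. The loxapine count was 1 without any 1 vehicle replicate or its own replicate 3, and 0 without its own replicate 2. Against nicotinamide, sodium butyrate had 1 higher and 1 lower and loxapine 0 higher and 1 lower. Against haloperidol, meclizine and pizotifen had 3 higher and 0 lower each. Of all genes, 22.7%, 18.3%, 25.7% and 14.7% were called in these comparisons. With single samples left out, these counts were as low as 1 for meclizine and 0 for the others. Rragb, the partner of RagC or RagD, rose the most with DKI (0.31, adjusted p = 0.0022) and meclizine (0.35, adjusted p = 0.0012), and Rraga with cyproheptadine (0.35, adjusted p = 2.1e-06). The count was 2 without vehicle replicate 1 for meclizine and 2 without replicate 1 for cyproheptadine, and with only the compared samples it was 2 for cyproheptadine and 1 for DKI. Between the lines Rragb was higher by 1.32 in STHdhQ7 (SE 0.082, adjusted p = 8.3e-17), and 4 of the 8 were lower, with Lamtor5, a Ragulator subunit, lower by 0.53. Of all genes, 55.8% were called between the lines. The list medians were 0.13, 0.15 and 0.22 for the 3 compounds and -0.095 between the lines.

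Among 10 genes of mTORC1 and the TSC complex, which restrains it, DKI had 4 higher and 2 lower, and meclizine and cyproheptadine had 2 higher and 2 lower each, against 42.3%, 26.8% and 35.6% of all genes. Akt1s1, an inhibitory subunit of mTORC1, rose by 0.65, 0.54 and 0.35 with the 3 compounds, and Tsc2, which inactivates the mTORC1 activator RHEB, fell by 0.24, 0.21 and 0.37. The meclizine count was 2 without meclizine replicate 1, and the DKI count of 6 was 3 with only the compared samples. The medians were 0.08, 0.055 and 0.00. Tsc2 also fell with loxapine (0.28) and pizotifen (0.25), which had 1 higher and 3 lower and 1 higher and 2 lower, against 21.9% and 17.9%. Against nicotinamide, loxapine had 2 higher and 0 lower, with 18.3% of all genes called. Sodium butyrate had 2 higher and 5 lower against vehicle, and 1 higher and 3 lower against nicotinamide, with 37.5% and 22.7% of all genes called.

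In the list of amino acid sensing, 14 of 18 genes were found and tested. DKI had 4 higher and 4 lower, meclizine 4 and 3, and cyproheptadine 2 and 4, against 42.3%, 26.8% and 35.6% of all genes. Sesn2, which encodes a leucine sensor and responds to amino acid stress, rose by 1.09 with DKI (SE 0.097, adjusted p = 1.6e-11), 0.86 with meclizine and 0.76 with cyproheptadine, while its relative Sesn3 fell by 0.65 with DKI and by 0.70 with cyproheptadine. Meclizine had its deepest fall in Sesn1, by 0.40, and its count was 4 without meclizine replicate 1 and with only the compared samples. The DKI count of 8 was 3 with only the compared samples. The list medians were -0.025, -0.05 and -0.015. Other comparisons held the same changes: Sesn2 rose by 0.29 with loxapine and 0.34 with pizotifen, and Sesn3 fell by 0.73 and 0.53. Each of these 2 compounds had 2 higher and 3 lower, against 21.9% and 17.9% of all genes. Between the lines, Sesn2 was higher by 0.78 and Sesn3 lower by 0.89 in STHdhQ7. There 4 were higher and 8 lower, against 55.8% of all genes, with a total of 9 to 12 when single samples were left out.

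For genes that act on the location of TFEB, 14 of 15 were tested, and DKI had 2 higher and 4 lower, meclizine 1 and 3, and cyproheptadine 1 and 4, which are shares near the 42.3%, 26.8% and 35.6% of all genes called. The DKI count of 6 was 3 with only the compared samples. Mcoln1, the lysosomal calcium channel that acts on TFEB through calcineurin and is also in the list of targets, rose by 0.47, 0.42 and 0.33 (adjusted p = 2.4e-09, 7.6e-08 and 6.3e-06). Map4k3, a kinase of amino acid signalling that phosphorylates TFEB, fell by 0.51, 0.40 and 0.45. Between the lines all 14 were called, 5 higher and 9 lower in STHdhQ7, against 55.8% of all genes, but 8 with only the compared samples and as few as 10 with single samples left out. The medians were -0.06, 0.00 and -0.07 for the compounds and -0.15 between the lines. Mcoln1 also rose with pizotifen (0.26), trichostatin A (0.20) and loxapine (0.17), and was higher in STHdhQ7 by 0.45. Map4k3 also fell with sodium butyrate, by 0.28.

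**Figure D4:**
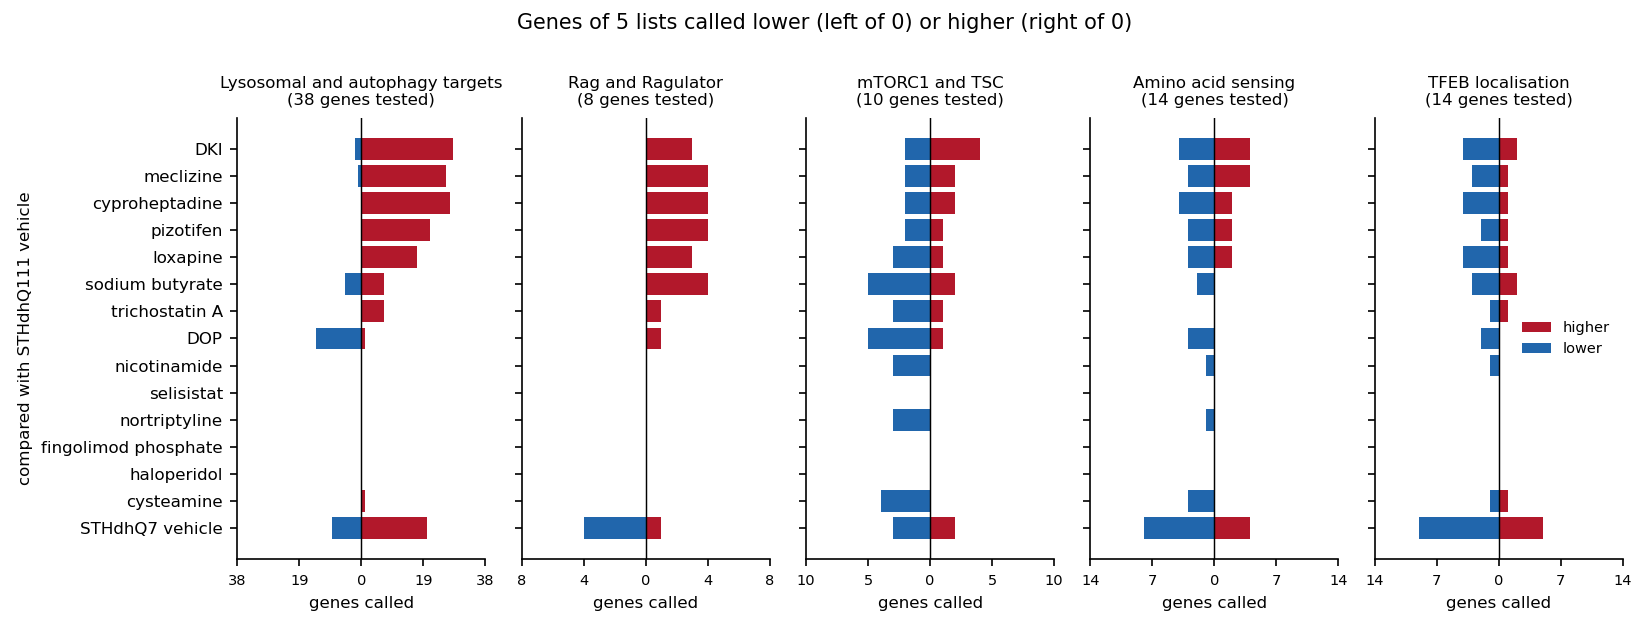
Number of genes of each list called higher (red, right of 0) or lower (blue, left of 0) in each condition compared with the STHdhQ111 vehicle control, with each axis reaching the number of genes tested. The list of lysosomal and autophagy targets leans right for the 5 compounds of Groups A and B and left for DOP. Compared with nicotinamide instead, DOP had 3 genes of this list called, all lower.

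For each gene, the 3 genes with the most similar pattern were sought among 9937 others with a mean of at least 6, by Pearson's r of condition means over the 15 STHdhQ111 conditions. These conditions share cell line, library preparation and, in groups, collection slots, so r describes these conditions only. Gpnmb was most like Cars, a cysteine tRNA synthetase (r = 0.985), Atf4, the factor of the amino acid response (0.984), and Zbtb21 (0.982). Rragd was most like Mcm8 (0.955), Mcoln1 (0.952) and Glce (0.952), and Mfsd1 (0.94) and Neo1 (0.937) were among the genes most like Fnip2. Rragc was most like Canx, an endoplasmic reticulum chaperone (0.955), Slc31a1, a copper transporter (0.955), and Atp6v1h, a subunit of the lysosomal proton pump (0.951).

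Flcn was most like Rrn3 and Rbm19 (0.963 each), which act in ribosomal RNA synthesis and processing, and Slc25a44 (0.962). Fnip1 was most like Phf3 (0.941), Ddx3x and Eea1 (0.933 each). Tfeb was most like Ddah2 (0.974), Ephb3 (0.969) and Zfp385a (0.967). Mitf was most like Aktip (0.923), Tdp1 (0.882) and Hoxa7 (0.881). For Tfe3 the likeness was weaker, with Blcap (0.83), Sf3b4 (0.828) and Ptcd2 (0.808).

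Among the 9 genes, the same measure was 0.92 for Fnip1 with Fnip2 and for Fnip2 with Rragc, 0.90 for Flcn with Fnip2 and with Rragc, and 0.79 for Rragd with Gpnmb. Tfeb ran against the rest, with r between -0.93 (Gpnmb) and -0.28 (Mitf). Mitf was apart from most of the axis, with 0.00 for Flcn, 0.08 for Rragc and 0.65 for Rragd. Tfe3 had 0.56 with Flcn and -0.48 with Tfeb. The folliculin complex, the 2 Rag GTPases and Gpnmb thus had positive values with each other, from 0.62 for Flcn with Rragd to 0.92.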

How the data were processed

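PolyA RNA of 48 samples was sequenced with a directional kit, and the 3 samples of each of 16 conditions were grouped by their labels. Trimming (Trimmomatic 0.36), alignment to the transcriptome of GRCm38.p5, quantification (RSEM) and a DESeq2 model of the collection day were done by the authors. The values deposited by the authors are normalized abundances read as log2 values (from -2.34 to 18.62), since sums of 2 to their power differ little between samples (highest over lowest 1.114). The transformation is not named, genes with low values hardly vary, and neither counts nor depth could be recovered, so differences of low genes may be understated, and count models were not used. With values already logarithmic, no pseudocount was added.

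Genes with a symbol and a mean of at least 1 were tested (13409 of 18178). With limma 3.58.1 in R 4.3.3, condition and collection day were fitted to all 48 samples (30 residual degrees of freedom, variances moderated along a trend on abundance). The tests were two-sided, with p-values adjusted by Benjamini-Hochberg over all tested genes within each of 24 comparisons, and called under 0.05. The intervals given are 95% intervals of the fit. The fit was tested on simulated data. Alternatives were other filters, other terms, only the compared samples, a replicate block, rescaling, a pseudocount of 8 on the linear scale, no variance trend, and each sample left out. Named genes were the 9 members, for each member the 3 genes most like it, and for each gene list the genes with the largest called rise and fall. One result of this rule is not reported here. The lists were lysosomal and autophagy targets, Rag and Ragulator, mTORC1 and TSC, amino acid sensing, TFEB localisation and cell type markers. Members, lists and comparisons were chosen with earlier results of these data known. Positions come from GENCODE annotation and promoters from RefSeq. Figures were drawn with matplotlib 3.10.9.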

Additional observations from a re-analysis of the deposited data

How the results depend on the processing

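Among the 9 genes, no difference called in the main fit or in an alternative fit changed direction between them. Changes of sign in differences called in neither were not examined. The number of calls among the 9 genes was 35 to 41 for the 14 compounds with single samples left out, 6 to 7 between the lines, 3 to 6 for Group A against Group B, 19 to 24 for the slot-matched comparisons and 0 to 2 for cyproheptadine against loxapine. The last count was 1 with no minimum mean, with collection time as a further term and with a pseudocount of 8, in each of which the Tfeb call was lost, and its cause was not tested. Of the single comparisons, nicotinamide against vehicle went from 1 call to 2 with no term for the collection day and to 3 with only the compared samples, DOP against nicotinamide from 1 to 2 with only the compared samples, and trichostatin A against haloperidol from 1 to 2 with no term for the day. Trichostatin A against vehicle went from 2 to 1 with a minimum mean of 6, which leaves out Mitf. Outside the fits with samples left out, the other counts among the 9 genes moved by 1.5 times at most.

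The replicate number follows the collection day, apart from replicate 1 of cyproheptadine and DKI. Same-numbered samples did not deviate together (mean correlation -0.0487), and 1 of 120 pairs of conditions had all its correlations over 0.1. Deviations from a condition mean sum to 0, so the mean for other numbers (0.0245) follows from the first and is no separate reference. The replicate number as a block in place of the day relabels only replicate 1 of cyproheptadine and DKI, so it could change little. With that block the counts were 39, 6, 6, 23 and 2, and no call among the 9 genes changed. Rescaling changed none either. With only the compared samples in the fit, 9 calls were lost and 6 gained among the 216 gene comparisons. With 3 samples per condition and unknown depth, differences of about the size of the smallest calls may be missed.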
